A study of Mus musculus with 5 samples.

Results

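The genes of the E protein network were followed in sorted mouse stem cells of the blood (LT-HSCs, for long-term haematopoietic stem cells) after deletion of Zbtb7a, the gene of the transcription factor LRF. They were the E protein genes Tcf3, Tcf4 and Tcf12, the Id genes Id1, Id2 and Id3, and Tal1 and Lyl1. Members were chosen by symbol: every probe set that the platform annotation gave to 1 of these 8 genes alone was taken, 21 of 45037 in all. The 8 genes stood among 18193 with a probe set of their own, and no probe set was shared between a member and another gene.

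The tested arrays came from 3 Lrf knockout animals (Zbtb7a Flox/Flox Mx1-Cre+), and 2 further arrays came from controls (Zbtb7a Flox/+ Mx1-Cre+). All were C57BL/6 mice aged 4 weeks that had received 2 injections of 250 µg pIpC, a double-stranded RNA analogue that induces the Mx1 promoter and so Cre, and cells were taken on day 9 after the first. The controls thus shared Cre, pIpC and 1 floxed allele with the knockouts. Mx1 is an interferon-inducible promoter active in many cell types, so cells other than stem cells can carry the deletion too. The sort kept LSK cells (no lineage markers, with Sca-1 and Kit) that carried CD150 and lacked IL7Ra, Flt3 and CD48. The description of knockout replicate 3 names 2 animals, so that library may be a pool. Values are log2 RMA intensities, which can be compared between arrays for a probe set but not between probe sets.

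E proteins are basic helix-loop-helix (bHLH) transcription factors found in most tissues. They bind E-box motifs as dimers, and in blood they are needed for lymphoid development. Id proteins have the helix-loop-helix but lack the basic region that touches DNA, so an E protein paired with an Id protein cannot bind. Tal1 and Lyl1 are bHLH factors of blood and endothelium that bind DNA together with an E protein, in a complex with Lmo2, Ldb1 and a GATA factor, and Tal1 is needed for blood formation while both act in adult stem cells.

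The sequences just upstream of a start site of 4 members are shown. These genes stand for the 3 arms of the network, and an array pattern described below runs through them. The windows are the 250 bases before an annotated start, from RefSeq on GRCm38.p6, written 5′ to 3′ on the strand of the gene. For Tcf3 and Lyl1 the start used lies inside the annotated span of the gene. The Tcf3 window thus lies within that span, and the Lyl1 window overlaps it. Capitals mark E-boxes (CANNTG), GATA motifs (AGATAA) and Ets motifs (CGGAA), each searched on both strands.
Tcf3, chr10:80433636-80433885, minus strand: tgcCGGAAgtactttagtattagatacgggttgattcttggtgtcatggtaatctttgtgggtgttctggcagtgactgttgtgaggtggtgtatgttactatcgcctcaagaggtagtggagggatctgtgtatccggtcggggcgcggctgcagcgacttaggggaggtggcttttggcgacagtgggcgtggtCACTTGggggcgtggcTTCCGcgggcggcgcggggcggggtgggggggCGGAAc
Id2, chr12:25096093-25096342, minus strand: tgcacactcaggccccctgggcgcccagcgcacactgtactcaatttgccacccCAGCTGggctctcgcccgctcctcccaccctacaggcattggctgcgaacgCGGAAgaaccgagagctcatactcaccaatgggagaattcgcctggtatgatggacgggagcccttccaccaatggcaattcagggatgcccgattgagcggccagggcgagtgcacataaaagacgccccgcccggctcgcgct
Tal1, chr4:115056176-115056425, plus strand: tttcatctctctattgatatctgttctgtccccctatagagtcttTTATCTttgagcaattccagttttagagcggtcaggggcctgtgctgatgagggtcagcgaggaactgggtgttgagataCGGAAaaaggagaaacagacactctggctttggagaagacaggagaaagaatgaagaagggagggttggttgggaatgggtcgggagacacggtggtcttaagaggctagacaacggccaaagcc
Lyl1, chr8:84701207-84701456, plus strand: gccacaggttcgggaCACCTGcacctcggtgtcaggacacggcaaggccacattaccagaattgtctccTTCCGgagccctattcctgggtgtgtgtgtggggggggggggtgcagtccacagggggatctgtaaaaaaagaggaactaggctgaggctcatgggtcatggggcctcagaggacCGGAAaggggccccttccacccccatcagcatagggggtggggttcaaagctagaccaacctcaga
The windows of Tcf3, Id2 and Lyl1 each held 1 E-box, which began 54 bases before the start in Tcf3, 196 in Id2 and 235 in Lyl1, and that of Tal1 held none. E-boxes occurred in 66.2% of 32851 windows of this length, so their presence is common. The Tal1 window held 1 AGATAA, found in 9.99% of windows, 205 bases before the start. CGGAA occurred 3 times in the Tcf3 window, 2 times in that of Lyl1 and 1 time each in those of Id2 and Tal1, against at least 1 match in 25.2% of windows. None of these 4 windows held the Egr motif GCGNGGGCG (4.70% of windows) or the AP-1 motif TGANTCA (6.75%). No motif of the 5 overlapped another in these windows. The promoter table had entries for 6 of the 8 genes, with 9 start sites, and only the first start of Tal1 is shown. A match of letters was not tested as a binding site.

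All arrays were kept, although knockout replicate 2 was unlike the rest. Over 45037 probe sets it correlated with them at 0.945 to 0.970, while they correlated with each other at 0.977 to 0.990. It was the lowest of the 5 arrays for 40.5% of 12813 genes and the highest for 26%. The 13 stem cell markers measured, among them Slamf1 (CD150), Procr and Mecom, had a median level of 7.62 in that array and 9.79 to 10.59 in the others, and their summed intensity was 12.02 on the log2 scale there and 13.67 to 14.49 in the others. The targeted gene Zbtb7a read 8.72, 8.33 and 9.06 in knockout replicates 1, 2 and 3 on its brightest probe set, against 8.22 and 8.36 in the controls. Its other 2 probe sets differed by -0.36 and -0.054. Where its probes lie relative to the deleted part is not known here, and they are no check of it.

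Loss of Lrf was not accompanied by a called change in any gene of the network. Of the 21 probe sets, 18 passed the filter on dim values, and 0 had a limma adjusted p under 0.05; 0 had an unadjusted p under 0.05. Over the whole array 0 of 27022 probe sets (0%) were called and 306 (1.13%) had an unadjusted p under 0.05, or 0.96% of 12813 genes. Groups did not overlap on 2 of the 18 probe sets, against 7.95% of all those tested. The dim Tcf3 probe set among these 2 passed the filter only through its knockout values. Tal1 was the 1 member gene whose groups did not overlap, at lower values in knockouts, out of 7 that passed on their brightest probe set. Over all 12813 genes 7.18% did not overlap, made up of 4.5% that were lower in knockouts and 2.68% that were higher. For 6 of the 8 genes the difference between the groups was smaller than the gap between the 2 controls, Tal1 and Id3 being the exceptions.

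**Figure D1:**
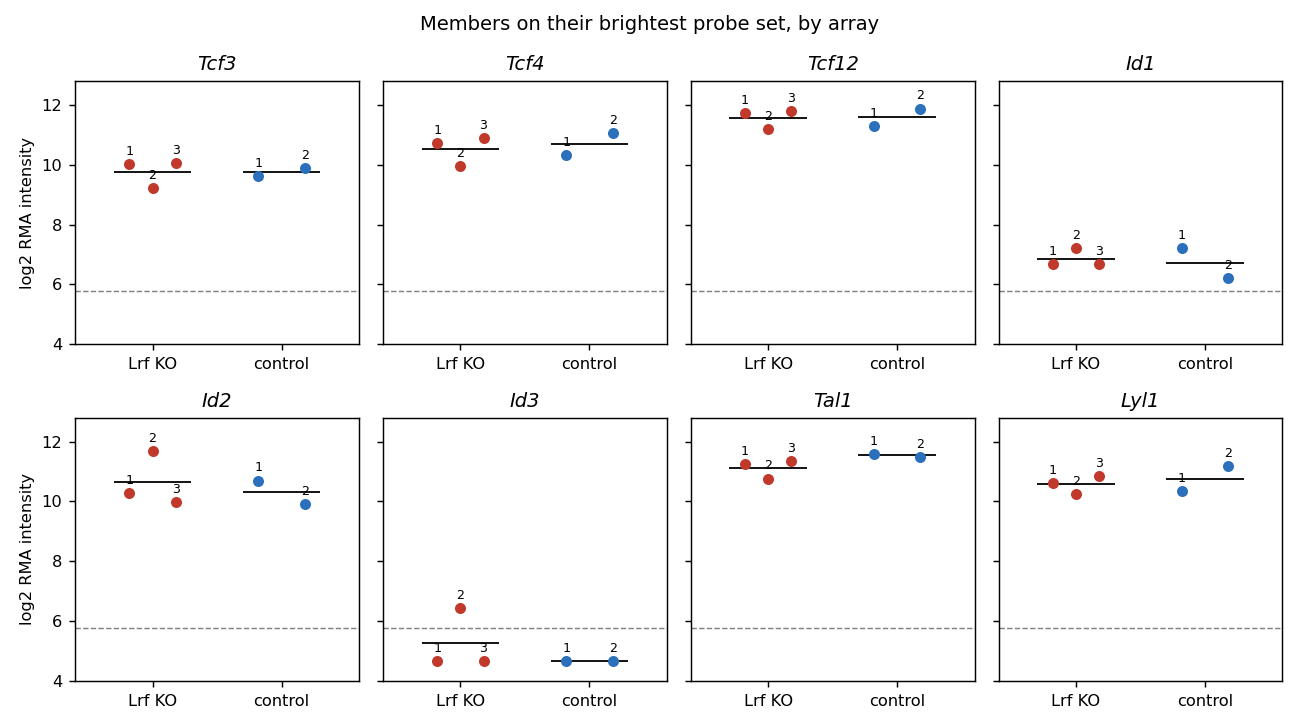
Log2 RMA intensity of the 8 genes on their brightest probe set, with knockout arrays (red, n = 3) left of controls (blue, n = 2). Numbers are replicates, black lines are group means, and the dashed line is the filter at 5.77. Knockout replicate 2 is the highest point for Id1, Id2 and Id3 and the lowest for the other 5 genes, and only for Tal1 do all knockout points lie below both controls.

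Tcf3 encodes the E2A proteins E12 and E47, which drive early lymphoid genes. It read 10.02, 9.21 and 10.05 in knockout replicates 1, 2 and 3, against 9.61 and 9.88 in the controls. Replicates 1 and 3 lay above both controls and replicate 2 below both, so the groups overlapped. The means were 9.76 ± 0.48 (SD, n = 3) in knockouts and 9.74 ± 0.19 (SD, n = 2) in controls, a log2 difference of 0.016 (SE 0.32, 95% interval -0.83 to 0.86, limma adjusted p = 1). Without knockout replicate 2 the groups separated, with a difference of 0.29 (SE 0.15, limma adjusted p = 0.955). Its other probe sets, both dimmer, differed by 0.028 and 0.15. The dimmest, near the filter at a mean of 5.83, had knockout values of 5.88, 5.88 and 5.91 against 5.62 and 5.86 in controls. Its control mean of 5.74 lay under the filter, so it passed only through its knockout values.

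Tcf4 encodes the E protein E2-2, known for its part in plasmacytoid dendritic cells. It read 10.71, 9.96 and 10.89 in knockouts, against 10.33 and 11.06 in controls. The control values enclosed those of knockout replicates 1 and 3, and replicate 2 was the lowest. The means were 10.52 ± 0.49 (SD, n = 3) and 10.70 ± 0.51 (SD, n = 2), a difference of -0.17 (SE 0.39, 95% interval -1.19 to 0.84, limma adjusted p = 1). Of its 5 probe sets above the filter, 4 differed by -0.11 to -0.20 and 1 by 0.095, and knockout replicate 2 was the lowest array on all 5. A further probe set lay below the filter, at 4.23 to 4.46. The sign of the Tcf4 difference turned to 0.11 without knockout replicate 2 and to 0.19 without control replicate 2.

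Tcf12 encodes HEB, the E protein that partners E2A in T cell precursors. It read 11.74, 11.18 and 11.80 in knockouts, against 11.31 and 11.88 in controls. As with Tcf4, replicates 1 and 3 fell between the controls and replicate 2 below them. The means were 11.57 ± 0.34 (SD, n = 3) and 11.59 ± 0.41 (SD, n = 2), a difference of -0.022 (SE 0.29, 95% interval -0.79 to 0.75, limma adjusted p = 1). The 4 other probe sets of Tcf12 differed by -0.028 to 0.16, with overlapping groups on each. Of the intervals of the 3 E protein genes this was the narrowest. It still ran from -0.79 to 0.75, so Tcf12 differences in that range could not be told from 0 with these arrays.

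**Figure D2:**
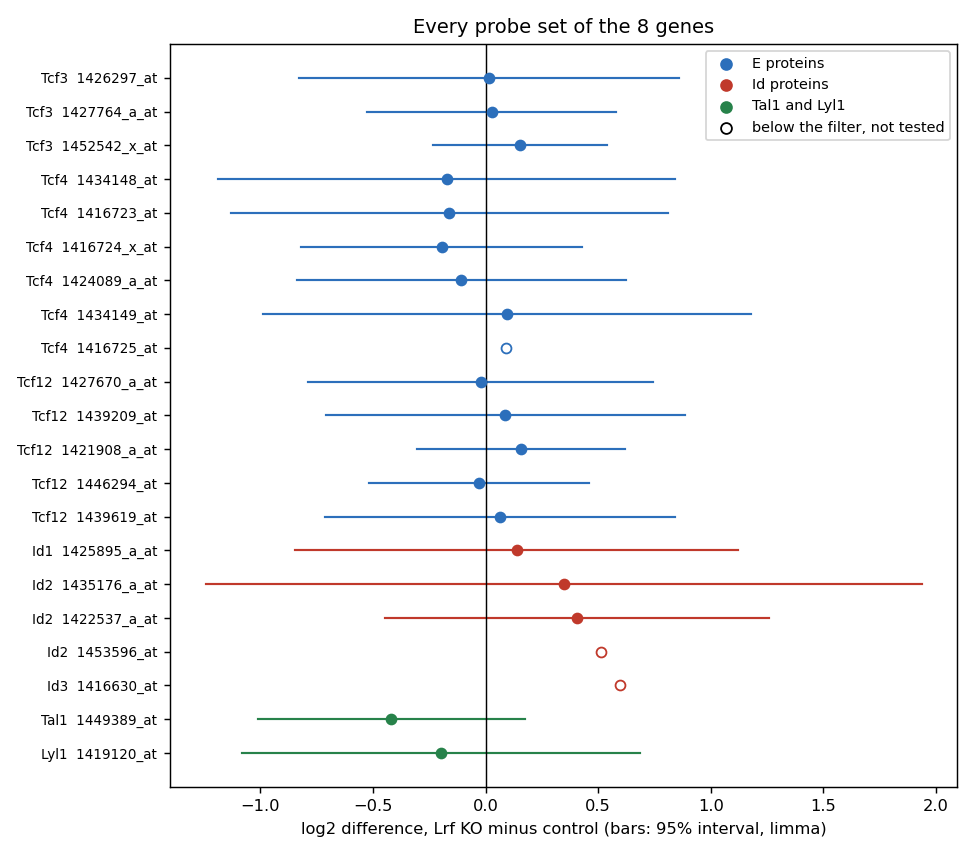
Log2 difference, knockout minus control, for each of the 21 probe sets, with 95% limma intervals for the 18 tested. Open circles are the 3 probe sets below the filter. Every interval includes 0, and that of Tal1 runs from -1.01 to 0.18.

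Id2 encodes an inhibitor of E proteins that is known for natural killer, innate lymphoid and dendritic cell development. It read 10.28, 11.69 and 9.98 in knockout replicates 1, 2 and 3, against 10.70 and 9.91 in the controls. Only replicate 2 exceeded both controls, and replicates 1 and 3 lay between them. The means were 10.65 ± 0.91 (SD, n = 3) in knockouts and 10.31 ± 0.56 (SD, n = 2) in controls, a difference of 0.35 (SE 0.61, 95% interval -1.24 to 1.94, limma adjusted p = 1). The difference was -0.17 without knockout replicate 2. Its other tested probe set differed by 0.41, but had a control mean of 5.61, under the filter, and passed only through its knockout values. The Id2 probe set below the filter read 5.92 in knockout replicate 2 and 4.53 to 4.93 elsewhere.

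Id1 encodes an inhibitor that responds to BMP signals. It read 6.67, 7.22 and 6.67 in knockouts, against 7.21 and 6.21 in controls, so the controls spanned almost the whole range. The means were 6.85 ± 0.32 (SD, n = 3) and 6.71 ± 0.71 (SD, n = 2), a difference of 0.14 (SE 0.38, 95% interval -0.85 to 1.12, limma adjusted p = 1). Id3, an inhibitor with a known part in lymphocyte development, was not tested, since its mean lay below the filter. It read 6.44 in knockout replicate 2 and 4.66 in each of the other 4 arrays. That is a gap of 1.78 between replicate 2 and the mean of the others. Knockout replicates 1 and 3 and control replicate 2 held the identical value, so their spread cannot be read.

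Tal1 was the member with the clearest separation. It read 11.24, 10.77 and 11.35 in knockout replicates 1, 2 and 3, against 11.59 and 11.49 in the controls. All 3 knockout values lay below both control values, replicate 2 the furthest. The means were 11.12 ± 0.31 (SD, n = 3) in knockouts and 11.54 ± 0.070 (SD, n = 2) in controls, a difference of -0.42 (SE 0.23, 95% interval -1.01 to 0.18), or 1.34-fold lower. It did not pass the test (limma adjusted p = 1, exact two-sided permutation p = 0.2, smallest possible 0.1). The difference was -0.24 (SE 0.13) without knockout replicate 2. Tal1 had 1 probe set, so no other could be set beside it.

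Lyl1, a relative of Tal1 that can stand in for it in adult stem cells, read 10.61, 10.25 and 10.84 in knockouts, against 10.34 and 11.20 in controls. Knockout replicates 1 and 3 lay between the controls. The means were 10.57 ± 0.30 (SD, n = 3) and 10.77 ± 0.61 (SD, n = 2), a difference of -0.20 (SE 0.34, 95% interval -1.08 to 0.69, limma adjusted p = 1). It was 0.23 without control replicate 2 and -0.63 without control replicate 1. With 1 control left, that direction rests on a lone array.

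In these sorted populations a lower signal from fewer expressing cells cannot be told apart from less RNA per cell. Macrophage markers moved with the groups beside Tal1. The 12 macrophage markers measured were all lower in knockouts by their means, 9 without overlap against 4.5% of all genes, and their summed intensity was 12.64 to 13.93 in knockouts and 14.14 to 15.03 in controls on the log2 scale. Endothelial cells also use Tal1 and Lyl1. Of 7 endothelial markers tested 4 had higher and 3 lower means in knockouts, with a median difference of 0.040. In each direction 1 did not overlap (14.3%), against 2.68% of all genes that were higher and 4.5% that were lower. Of 13 stem cell markers tested 12 had lower means in knockouts, against 7204 of 12813 genes. Their median difference was -0.71, and -0.068 without knockout replicate 2. Of 9 erythroid markers tested 7 had higher and 2 lower means in knockouts, with a median difference of 0.21. The part of any of these lists in the Tal1 values was not tested.

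The widest differences in the network lay between arrays rather than between groups. Relative to the control mean, the 3 Id genes lay 1.22 higher on average in knockout replicate 2, the 3 E protein genes 0.56 lower (-0.56) and Tal1 and Lyl1 0.64 lower (-0.64). In knockout replicates 1 and 3 the same averages were 0.15 and 0.24 for E proteins, -0.022 and -0.12 for Id genes, and -0.23 and -0.056 for Tal1 and Lyl1. For 6 of the 8 genes the controls differed in the same sense. Control replicate 1 lay above control replicate 2 for Id1 and Id2 and below it for Tcf3, Tcf4, Tcf12 and Lyl1. Control replicate 2 minus control replicate 1 was 0.72 for Tcf4, 0.57 for Tcf12 and 0.86 for Lyl1, against -1.0 for Id1 and -0.79 for Id2. Knockout replicate 2 and control replicate 1 thus shared low values of the E protein genes and Lyl1 and high values of Id1 and Id2. Id3 and Tal1 were not part of this. Id3 read 4.66 in control replicate 1, as in every array but knockout replicate 2. Tal1 was higher in control replicate 1 than in control replicate 2. The likeness of knockout replicate 2 and control replicate 1 was not particular to the network. Over 45037 probe sets knockout replicate 2 correlated at 0.970 with control replicate 1, against 0.945 to 0.947 with the other arrays. Over 27022 probe sets the deviations of both arrays from their group means correlated at 0.57.

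**Figure D3:**
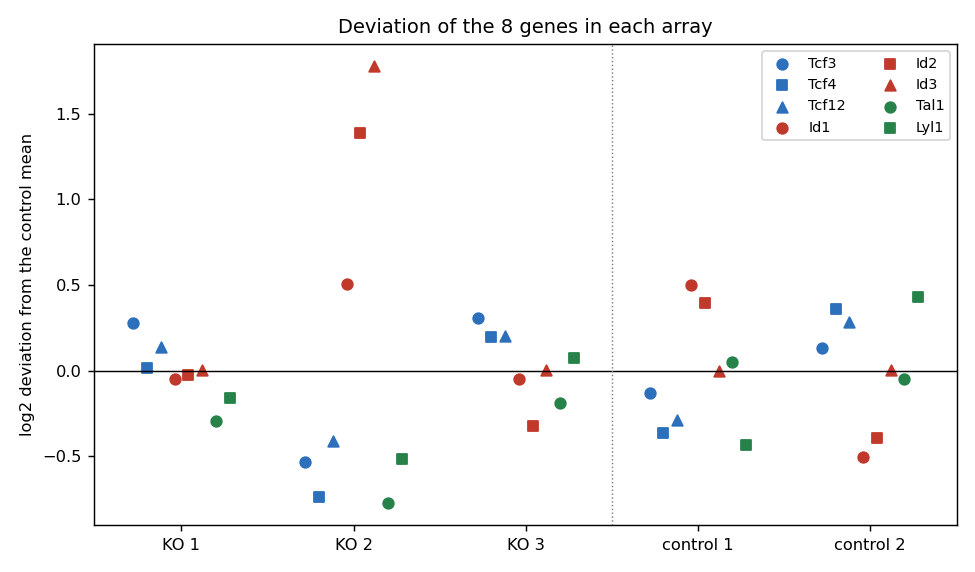
Log2 deviation of each gene from the mean of the 2 controls, by array, with knockouts left of controls. Blue marks E protein genes, red Id genes and green Tal1 and Lyl1. In knockout replicate 2 the Id genes lie 0.50 to 1.78 above the control mean and the other 5 genes 0.41 to 0.77 below it. The 2 controls mirror each other by construction.

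The size of this shift differed between members. Id3, which lay below the filter, is not itself among the 12813 genes used for comparison here. Id3 lay 1.78 and Id2 1.47 above the mean of the other arrays in knockout replicate 2, and 3.31% and 4.38% of the 12813 genes lay at least as far above. For Id1 (0.53) that share was 13.7%. For the genes that were low there it was 16.3% for Tcf4 (-0.79), 20.1% for Tcf3 (-0.68), 21.4% for Tal1 (-0.65), 28% for Tcf12 (-0.495) and 28.1% for Lyl1 (-0.49). The median distance of a gene from the other arrays was 0.39 in either direction. The low values of the E protein genes, Tal1 and Lyl1 in that array were thus shared in size by at least 16.3% of all genes.

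Several marker lists moved in the same array. Relative to the control mean, 13 immediate early genes had a median of 2.68 in knockout replicate 2, with Fos at 14.04 there against 6.96 to 7.23 in the other arrays and Klf4 at 11.95 against 5.96 to 6.33. In knockout replicates 1 and 3 this median was 0.00 and -0.23. The 9 B cell markers had a median of 1.93 in replicate 2 and -0.43 and -0.28 in replicates 1 and 3, and 6 mast cell and basophil markers 2.34 against 0.36 and 0.17. Ebf1 is among the 9 only through its value in replicate 2, and 8 were tested without that array. Summed log2 intensities were taken over all markers measured, 9 for B cells and 9 for mast cells and basophils, 3 of the latter below the filter. They were 13.27 (B cell) and 13.10 (mast cell and basophil) in replicate 2, against 10.61 to 11.19 and 9.95 to 11.53 in the other arrays. Stem cell markers had a median of -2.27 in replicate 2, against -0.18 and 0.037 in replicates 1 and 3. In control replicate 1 these medians were 0.046 (immediate early), -0.0087 (B cell), 0.089 (mast cell and basophil) and -0.43 (stem cell). Control replicate 2 mirrors them by construction. The 9 erythroid markers were high in both knockout replicate 2 (median 0.98) and control replicate 1 (1.07). Their median was -0.49 and 0.38 in knockout replicates 1 and 3 and -1.07 in control replicate 2. The part of these cells or genes in the Id and E protein values was not tested.

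Cells that depend on Id2 or Tcf4 were looked for through their own markers. Of 9 natural killer and innate lymphoid markers measured, 5 passed the filter. Klrd1, a receptor subunit, passed only through its knockout values, so no count over these 5 is given. It read 6.22, 9.55 and 5.14 in knockouts, against 4.57 and 5.00 in controls. The granzyme gene Gzma read 9.09, 9.18 and 6.96, against 6.47 and 6.78. Klrd1 and Gzma are named after their values were seen. The median level of the 5, Klrd1 included, overlapped between the groups. It was 6.22, 6.87 and 5.82 in knockouts, against 6.06 and 5.66 in controls. Their median difference was 0.35, and 0.11 without knockout replicate 2, where 4 were tested. The summed log2 intensity of all 9 measured, also those below the filter, was 9.97, 10.93 and 8.99 in knockouts. It was 8.93 and 8.85 in controls. Of 8 plasmacytoid dendritic cell markers tested all 8 had positive differences, against 5592 of 12813 genes. Only 1, Ly6d, did not overlap (12.5%, against 2.68% of all genes that were higher). Ccr9, another of the 8, is also one of the E protein targets described below. The median difference of the 8 was 0.67, and 0.25 without knockout replicate 2, where 6 of 8 were positive. The sum over all 9 plasmacytoid dendritic cell markers measured, 1 of them below the filter, was 11.42, 12.72 and 10.76, against 10.85 and 10.62. Both sums were highest in knockout replicate 2, where Id2 was highest and Tcf4 lowest, and their part in these values was not tested.

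Some genes followed the members closely over the 5 arrays. Likeness was the root mean square distance between 2 genes after each was centred on its own mean, over 12812 other genes, and was taken for the 4 members that spanned at least 1 log2 unit. Nearest to Tcf4 were Mgme1 (0.026), Mipol1 (0.029) and Rbak (0.036). Nearest to Id2 were Ctsk (0.054), Capn1 (0.11) and Fcgr2b (0.12). Nearest to Id1 were 2500002B13Rik (0.051), Mst1 (0.064) and Ube4a (0.066). Nearest to Id3 were Stxbp6 (0.044), Vpreb3 (0.058), a pre-B cell receptor component, and Tmem71 (0.077), out of 12813 genes. With 5 arrays such distances describe these libraries only.

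Genes that E proteins are known to activate in lymphoid cells were described next. Of 26 targets above the filter, 22 had a positive difference, with a median of 0.56 against -0.030 over all 12813 genes. In limma 0 of 26 passed the test, 3 had an unadjusted limma p under 0.05, and 6 did not overlap between groups, all higher in knockouts (23.1%, against 2.68% of all genes). They were Rag1, Hes1, Bcl11b and Il7r, named by rule, and Notch3 and Cdkn1a, named after their values were seen. Rag2 and Blk passed the filter only through their knockout values, so the counts over the list are a description of these arrays. Rag1, the recombinase of antigen receptor genes, read 9.40, 9.87 and 8.38 in knockouts, against 6.93 and 6.86 in controls, a difference of 2.32 (SE 0.47, limma adjusted p = 1). Il7r encodes IL7Ra, a marker that the sort excluded, and read 9.35, 10.50 and 7.44 in knockouts, against 6.21 and 7.30 in controls. The other excluded markers, Cd48 and Flt3, differed by 0.73 and -0.38, both with overlapping groups. Cdkn1a, the cell cycle inhibitor p21, read 7.79, 8.86 and 8.04, against 7.62 and 7.54. These E protein targets also belong to Notch and lymphoid programmes. Several were seen to be high in earlier results of these data, so the targets are not independent support. Without knockout replicate 2 the median over the list was 0.047, and 15 of 25 differences were positive, with 6 genes higher and 4 lower without overlap, against 13.9% and 13.4% of all genes.

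Some targets were high in 1 array. Ebf1, Pou2af1, Cd79a and Vpreb3, which belong to the B lineage and are named after their values were seen, were high in knockout replicate 2 alone. Ebf1 read 4.97, 9.38 and 4.99 in knockouts, against 6.11 and 6.43 in controls. Pou2af1 read 6.40, 10.57 and 5.94, against 6.44 and 6.78. Ebf1 and Cd79a are also among the 9 B cell markers above. Ebf1 passed the filter only through its value in knockout replicate 2. That array was also the one with the lowest E protein and the highest Id values. Bcl11b, which commits cells to the T lineage, was instead highest in knockout replicate 1, at 9.87, while the other knockouts read 7.77 and 7.80. The controls read 6.54 and 6.03.

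**Figure D4:**
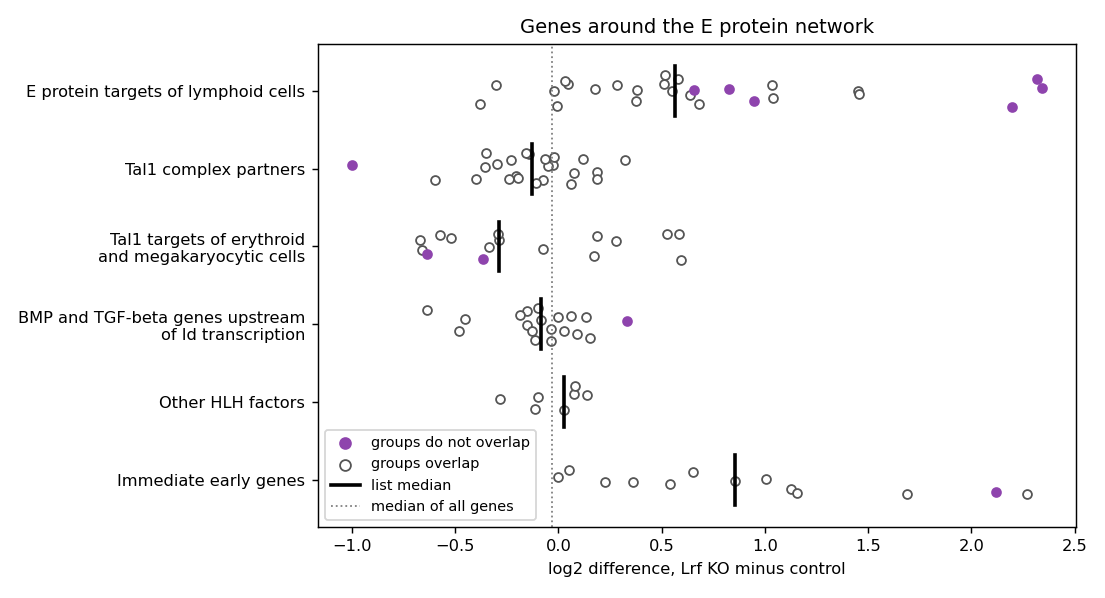
Log2 difference, knockout minus control, of each gene tested in 6 lists around the network. Purple points are genes whose groups do not overlap, thick bars are list medians, and the dotted line is the median of all genes (-0.030). E protein targets have a median of 0.56 and immediate early genes of 0.86, and the median of the immediate early genes is -0.20 without knockout replicate 2.

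Partners of Tal1 in its DNA-bound complex did not pass the test either (0 of 24, 18 with a negative difference, median -0.13). Runx1t1, which encodes the corepressor ETO, was the 1 partner without overlap (1 of 24, or 4.17%, against 4.5% lower over all genes). It read 6.80, 6.10 and 6.89 in knockouts, against 7.79 and 7.39 in controls, a difference of -0.998 (SE 0.31, limma adjusted p = 1). Lmo2, the bridging subunit, read 12.86, 12.05 and 13.08, against 12.89 and 13.15, and Gata2 read 10.84, 9.16 and 10.88, against 10.64 and 11.15. Both were lowest in knockout replicate 2, as Tal1 was. Cbfa2t2, a relative of Runx1t1, differed by -0.35 with overlapping groups. Without knockout replicate 2 the median of the list was 0.037.

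Tal1 targets of red cells and megakaryocytes were not called (0 of 16, median -0.29). Those without overlap were Gp9 and Itga2b, subunits of platelet receptors and both lower in knockouts (2 of 16, or 12.5%, against 4.5%). Gp9 read 7.91, 7.69 and 7.98, against 8.29 and 8.16, a difference of -0.36 (SE 0.16). Itga2b, also called CD41, read 9.96, 8.49 and 9.91, against 10.04 and 10.14. The median of the list was 0.88 without control replicate 1 and 0 genes were called. Alas2, the first enzyme of haem synthesis in red cells, was named after its values were seen and read 6.71, 12.89 and 7.88 in knockouts, against 11.75 and 7.72 in controls. It was thus high in the same knockout and control arrays as Id2.

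BMP and TGF-beta genes, which lie upstream of Id transcription, showed 0 calls among 19 tested and a median of -0.087. Tgfbr1, a TGF-beta receptor gene, was the 1 gene without overlap and read 10.10, 10.46 and 10.24 in knockouts, against 9.88 and 9.98 in controls (5.26% of the list, against 2.68% higher over all genes). Without control replicate 1 the median was -0.31. Smad6, an inhibitory Smad that BMP signals induce, differed by -0.64 (SE 0.46). The list had a median deviation of -0.035 in knockout replicate 2, the array in which the Id genes were highest. These are transcript values, and the part of BMP or TGF-beta signals in the Id values was not tested. Among other helix-loop-helix genes 27 of 34 lay below the filter, Id4 and Tal2 among them, and 0 of the 7 tested passed or separated the groups. Tcf15, a bHLH factor known in quiescent stem cells, read 8.54, 7.85 and 8.29, against 8.38 and 8.64.

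**Figure D5:**
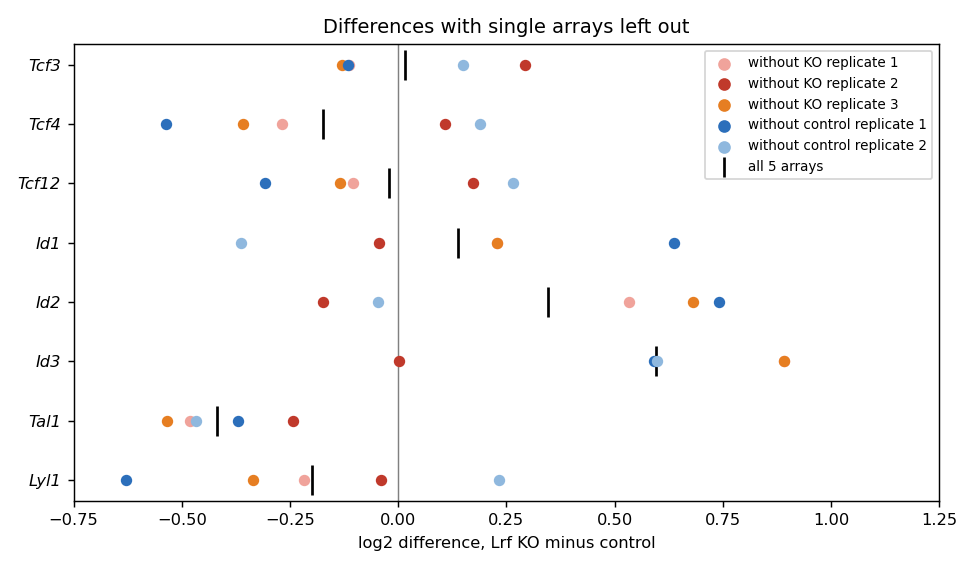
Log2 difference, knockout minus control, of the 8 genes with all arrays (black bars) and with each array left out (points). For Id1 and Id3 the points without knockout replicates 1 and 3 coincide, since those arrays held the same value. Tal1 stays between -0.53 and -0.24, and Id3 between 0.0030 and 0.89. The other 6 genes take both signs.

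Leaving out an array also moved the number of member genes whose groups did not overlap, out of 7 tested, but the share over all genes moved with it. There was 1, Tal1, without knockout replicate 1 (11.8% of all genes), without knockout replicate 3 (17%) and without control replicate 2 (30.6%). Without knockout replicate 2 there were 2, Tal1 lower and Tcf3 higher in knockouts, against 27.3% of all genes. Without control replicate 1 there were 6, against 45.1% of all genes: Tcf4, Tcf12, Tal1 and Lyl1 lower and Id1 and Id2 higher. Groups that do not overlap with all arrays cannot overlap with fewer, so the place of Tal1 in each of these counts is no sign of stability.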

How the data were processed

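RNA of sorted LT-HSCs was hybridised to 5 Affymetrix mouse arrays after 2 rounds of in vitro transcription, per the labels' protocols. The deposited values are log2 intensities. Per the submitters' processing notes, the authors computed them by RMA with the Expression Console program of Affymetrix, whose version is not given here. RMA gives the arrays a shared distribution, so a shift common to most transcripts cannot be seen, and 26.9% of the probe sets tested held identical values on 2 or more arrays, which understates their spread.

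Of 45037 probe sets, after 64 Affymetrix controls were removed, 40% with the lowest mean (under 5.77) were left out and 27022 were tested two-sided with limma 3.58.1 (R 4.3.3; lmFit, then eBayes) without covariates, and p-values were adjusted by Benjamini-Hochberg over all 27022. SE and 95% intervals are those of this fit. Gene names came from the platform annotation, in which 34945 probe sets had 1 symbol, 932 had several and 9160 had none. The probe set of highest mean stood for a gene, which gave 12813 genes. Single genes also had an exact two-sided permutation test over 10 splits (smallest p 0.1). With 5 arrays, their number sets how precise any value can be. Labels do not say that cells came from separate sorts or litters, so p-values measure the spread between these arrays. The procedure was first tested on simulated arrays. Figures were drawn with matplotlib 3.10.9.

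The 8 members and the lists were chosen with earlier results of these data known. The rule for named genes takes all members, up to 4 genes of each other list by smallest p, any list gene with a log2 difference of at least 1 and no overlap between groups, and, for members spanning at least 1 log2 unit, the 3 genes nearest in profile. Of 261 list entries, 246 had a probe set of their own. Alternatives were no filter, a filter on the lowest 60%, median centring, cyclic loess, another eBayes prior, array weights, averaging the probe sets of each gene, blocking on the replicate number and omitting single arrays.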

Additional observations from a re-analysis of the deposited data

How the results depend on the processing

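The number of arrays limits every value, and each interval of a member includes 0. Counts of called probe sets, members and list genes were 0 in limma with all 5 arrays and under each alternative run for them. The same-numbered arrays deviated in opposite directions from their group means (correlations of -0.54 and -0.57). The deviations of 2 controls mirror each other by construction, so these values cannot show whether the replicate numbers pair anything. The replicate block, which leaves knockout replicate 3 without a partner, called 0 probe sets and gave Tcf3 a difference of -0.13. Small differences changed sign: Tcf12 was 0.029 with cyclic loess, 0.052 with the mean of its probe sets and 0.12 with array weights, which also gave Tcf4 0.0055 and Id1 -0.019. With single arrays left out, the differences ranged from -0.13 to 0.29 for Tcf3, -0.54 to 0.19 for Tcf4, -0.31 to 0.26 for Tcf12, -0.36 to 0.64 for Id1, -0.17 to 0.74 for Id2 and -0.63 to 0.23 for Lyl1. Member genes whose groups did not overlap numbered 1 to 6. There were 2 without knockout replicate 2, where 27.3% of all genes did not overlap, and 6 without control replicate 1, where 45.1% did not. E protein targets without overlap, a count added after seeing the data, numbered 6 to 11 in these fits, while 11.8% to 45.1% of all genes did not overlap. Without knockout replicate 2 there were 10, of which 6 were higher and 4 lower in knockouts, against 27.3% of all genes. Where a value changed sign, the cause was not tested. Background correction was not varied, since only summarised values were used here.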
